A study of Mus musculus with 15 samples.

Results

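The genes described here are 8 transcription factors of the trophectoderm, the outer epithelium of the mouse blastocyst that gives rise to the placenta: Cdx2, Gata3, Hand1, Eomes, Elf5, Tfap2a, Tfap2c and Tead4. They were picked by symbol, with earlier results of these data known, and were followed through 2 deposited expression tables of 24819 genes each. All 8 symbols were found in both tables. The cells were E14 mouse embryonic stem cells, a line derived from the inner cell mass, kept on gelatin in serum-containing medium with leukemia inhibitory factor. Every group, the control included, received an siRNA by lipid transfection with DharmaFECT. The control group, siNT, received a non-targeting siRNA, and the other 4 groups received an siRNA against a protein gene of the large ribosomal subunit: siRpl11 (Rpl11), siRpl14 (Rpl14), siRpl18 (Rpl18) or siRpl23 (Rpl23). Each group had 3 libraries of poly-A RNA, 2 numbered replicates in the first table and 1 library in the second table, so 15 libraries in all. The second table was deposited as replicate 3, though its columns carry no replicate number. The sample titles give 48 h of knockdown, whereas the treatment protocol gives harvest after 3 days. The labels name 1 cell line and do not say whether the replicates were separate cultures. The p-values therefore rest on the spread among libraries, which may be technical.

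In the blastocyst, Tead4 is the DNA-binding partner of the Hippo pathway co-activators Yap1 and Wwtr1. In outer cells, where Hippo signalling is low, the co-activators enter the nucleus and Tead4 switches on Cdx2 and Gata3, the first factors of the trophectoderm program. Cdx2 opposes Pou5f1, a core factor of the inner cell mass and of embryonic stem cells, and with Eomes, Elf5 and Tfap2c it belongs to the network that keeps trophoblast stem cells. Hand1 acts later, in the giant cells that trophoblast stem cells form. Several members also work elsewhere: Eomes in mesoderm and endoderm, Hand1 in the heart and extra-embryonic mesoderm, Tfap2a in surface ectoderm and neural crest, and Tfap2c in germ cells. Embryonic stem cells normally keep most of this program silent.

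The first table was used for tests and the second, which the authors normalized separately, for a look at direction only. Tests were made with limma on log2(FPKM + 1), over the 12249 genes with at least 1 FPKM (fragments per kilobase of transcript, scaled to the size of the library) in at least 2 of the 10 libraries, and a gene was called at a Benjamini-Hochberg adjusted p under 0.05. A difference below is on this log2 scale, which understates changes of genes under about 1 FPKM. All 4 comparisons with siNT share the same 2 control libraries. The targeted gene's FPKM stood at 24.0% of siNT for Rpl11, 51.6% for Rpl14, 32.6% for Rpl18 and 36.3% for Rpl23. The replicates of a group correlated across genes at r of 0.991 to 0.996, and the relative depth of the 10 libraries, judged from the smallest steps between FPKM values, ranged from 0.685 (siNT replicate 2) to 1.455 (siRpl11 replicate 2). In siRpl11 the median difference from siNT over all tested genes was -0.11, and it moved to 0.01 with median-ratio scaling or quantile normalization. Of the genes called in siRpl11, 38.5% were higher, and 50.9% were higher under either of those scalings.

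The 250 bases upstream of the RefSeq start sites of Cdx2, Gata3 and Eomes are shown because these genes moved differently after knockdown. Cdx2 and Gata3 left the floor of detection, and in the first table Eomes stayed near its control level outside siRpl11. They come from RefSeq's GRCm38.p6 assembly, not the mm9 build that the submitters' processing notes name for the expression tables. Of the 8 members, 5 had an entry. Capitals mark the 9 letters GCCNNNGGC, which AP-2 factors such as Tfap2a and Tfap2c bind. The letters of TEAD factors, GGAATG, were also searched on both strands. So were those of GATA factors, spelled AGATAA, and those of the TATA box, spelled TATAAA. With the p53 half-site, these spellings gave no match in the 3 windows shown. Other spellings of a TATA box were not searched, such as the tatataag near the end of the Eomes window. The lack of a match therefore does not show that a window lacks a TATA box. The AP-2 letters read the same on both strands, and no matches overlapped.
Cdx2, chr5:147307250-147307499, minus strand: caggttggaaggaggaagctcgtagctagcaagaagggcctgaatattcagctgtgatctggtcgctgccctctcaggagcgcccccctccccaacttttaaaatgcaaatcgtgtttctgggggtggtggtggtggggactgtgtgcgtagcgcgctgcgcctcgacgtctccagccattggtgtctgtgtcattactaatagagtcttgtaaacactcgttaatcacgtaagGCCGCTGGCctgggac
Gata3, chr2:9878601-9878850, minus strand: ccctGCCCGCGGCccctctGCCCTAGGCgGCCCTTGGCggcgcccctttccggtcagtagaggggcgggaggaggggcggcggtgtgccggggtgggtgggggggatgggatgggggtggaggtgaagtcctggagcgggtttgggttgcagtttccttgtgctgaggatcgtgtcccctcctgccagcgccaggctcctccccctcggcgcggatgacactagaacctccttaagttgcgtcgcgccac
Eomes, chr9:118477939-118478188, plus strand: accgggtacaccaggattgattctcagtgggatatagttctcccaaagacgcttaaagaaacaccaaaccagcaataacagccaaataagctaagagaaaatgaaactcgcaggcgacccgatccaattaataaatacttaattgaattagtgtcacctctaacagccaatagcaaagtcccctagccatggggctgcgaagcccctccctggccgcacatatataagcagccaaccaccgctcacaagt

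The Cdx2 window held 1 AP-2 match, 16 bases before the start site. Gata3 held 3 AP-2 matches in a row, which began 246, 231 and 221 bases before the start. The Eomes window held none. Among 32851 mouse promoters of the same length, 13.7% had an AP-2 match, 12.6% a TEAD match, 9.99% a GATA match, 7.13% a p53 half-site and 12.4% a TATA match. The windows also differed in base composition. Gata3 was 70% G and C with 19 CpG dinucleotides, Cdx2 55.2% with 13 and Eomes 46.4% with 8, against medians of 52.4% and 6 over all promoters. Of the other members, 1 of the 2 Elf5 promoters had a TEAD match and neither of the 2 Tfap2a promoters had a match to any of the motifs. A match describes the letters of a window and does not show that a factor binds there.

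Tead4, which stands at the head of the pathway, was lower in all 4 knockdowns. Its siNT libraries held 6.09 and 5.89 FPKM. The siRpl11 libraries held 2.76 and 2.66 FPKM, and the siRpl14 libraries 3.37 and 3.21. For siRpl18 the values were 2.79 and 3.02 FPKM, and for siRpl23 2.89 and 2.92. Every knockdown library was thus well below both controls. Tead4 fell by 0.91 ± 0.07 (SE) in siRpl11 (limma adjusted p = 1.65e-06), by 0.70 ± 0.07 in siRpl14 (1.33e-05), by 0.84 ± 0.07 in siRpl18 (3.01e-06) and by 0.84 ± 0.07 in siRpl23 (3.31e-06). In the second table, siNT was also the highest library, at 7.06 FPKM, with the knockdowns between 3.77 and 5.03. The knockdowns lay close together: siRpl14 was above siRpl11 by 0.21 (limma adjusted p = 0.0243), and no other pair was called. That call was lost with median-ratio scaling (0.09, adjusted p = 0.275), when any 1 of the 4 libraries was left out (0.18 to 0.24, adjusted p of at least 0.0511) and with only those groups fitted (0.0502), and quantile normalization turned the difference to -0.11.

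Cdx2, the caudal-type homeobox factor that sets the trophectoderm apart from the inner cell mass, was almost undetected in control cells and was above that level in siRpl14, siRpl18 and siRpl23. The siNT libraries held 0.0710 and 0.0670 FPKM, which corresponds to about 3 and 2 fragments. The siRpl11 libraries held 0.173 and 0.149 FPKM. The siRpl14 libraries reached 1.54 and 2.12 FPKM, the siRpl18 libraries 0.823 and 0.879, and the siRpl23 libraries 1.50 and 1.09. The libraries of these last 3 groups did not overlap with those of siNT or siRpl11. Cdx2 rose by 1.40 ± 0.12 in siRpl14 (limma adjusted p = 5.44e-06), by 0.79 ± 0.12 in siRpl18 (0.000227) and by 1.10 ± 0.12 in siRpl23 (2.53e-05). In siRpl11 the difference was 0.12 (95% interval -0.15 to 0.39, limma adjusted p = 0.398), and with a pseudocount of 0.1 it was 0.63 and was called (adjusted p = 0.0438). That pseudocount also moved the other 3 differences, to 3.50, 2.49 and 3.03. The second table gave the same order, with siNT at 0.0487 FPKM, siRpl11 at 0.0787, siRpl18 at 0.966, siRpl23 at 1.10 and siRpl14 at 1.98. Among the 3 higher groups, siRpl18 was below siRpl14 by a difference of -0.60 (limma adjusted p = 0.0113). Leaving out siRpl14 replicate 2 ended that call (-0.46, adjusted p = 0.0785), as did leaving out siRpl18 replicate 1 (-0.58, 0.0582).

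Gata3, a zinc-finger factor that works beside Cdx2 downstream of Tead4, was above the control in all 4 knockdowns. It was near the floor of detection in siNT, at 0.0381 and 0.0272 FPKM. The siRpl11 libraries held 1.20 and 0.949 FPKM. The siRpl14 libraries held 3.68 and 3.02 FPKM, the siRpl18 libraries 4.66 and 4.93, and the siRpl23 libraries 4.20 and 4.26. The groups fell into 3 separate levels, with siNT lowest, siRpl11 between, and the other knockdowns on top. Gata3 rose by 1.00 ± 0.10 in siRpl11 (limma adjusted p = 8.10e-06), 2.07 ± 0.10 in siRpl14 (7.56e-08), 2.49 ± 0.10 in siRpl18 (1.67e-08) and 2.34 ± 0.10 in siRpl23 (2.83e-08). With a pseudocount of 0.1 these differences became 3.14, 4.70, 5.21 and 5.03, and they rest on siNT values of about 2 and 1 fragments. The order held in the second table for siNT (0.311 FPKM), siRpl11 (1.48) and the rest (2.49 to 3.59). There siNT held about 10 fragments, more than either control of the first table. The differences were smaller, at 0.92, 1.41, 1.58 and 1.81 in siRpl11, siRpl14, siRpl18 and siRpl23. The siRpl18 libraries exceeded those of siRpl14 by 0.42 (limma adjusted p = 0.0199), a call lost when any of 3 libraries was left out, siRpl14 replicate 2 or either siRpl18 replicate (0.31 to 0.45, adjusted p = 0.0636 to 0.129), in the fit of all 15 libraries (0.33, adjusted p = 0.182) and with a pseudocount of 0.1 (0.51, 0.0580). The pair siRpl23 and siRpl18 was not called (-0.15, 95% interval -0.36 to 0.07). Gata3 overlaps 2 other annotated genes of the table, 4930412O13Rik on the opposite strand and 9230102O04Rik on its own strand, which reached at most 0.263 and 0.168 FPKM in any library. The sources used here do not say whether counting used strand.

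Hand1, a basic helix-loop-helix factor of trophoblast giant cells, had the largest difference of the members between siRpl11 and the other knockdowns. The siNT libraries held 0.377 and 0.285 FPKM, and the siRpl11 libraries 0.239 and 0.304. The siRpl14 libraries held 3.36 and 2.77 FPKM, the siRpl18 libraries 2.79 and 2.61, and the siRpl23 libraries 4.71 and 4.27. The siRpl11 and siNT libraries overlapped, and all 6 libraries of the other knockdowns lay far above them. Hand1 rose by 1.61 ± 0.10 in siRpl14 (limma adjusted p = 4.30e-07), 1.48 ± 0.10 in siRpl18 (6.08e-07) and 2.04 ± 0.10 in siRpl23 (7.14e-08), whereas the difference in siRpl11 was -0.06 (95% interval -0.28 to 0.15, adjusted p = 0.566). With a pseudocount of 0.1 the 3 rises became 2.88, 2.71 and 3.42. In the second table siNT and siRpl11 stood at 0.50 and 0.671 FPKM, siRpl18 and siRpl14 at 4.04 and 4.08, and siRpl23 at 7.24. Hand1 was higher in siRpl23 than in siRpl18 by 0.57 (limma adjusted p = 0.0151). That call was lost when any 1 of the 4 libraries of those groups was left out (0.51 to 0.63, adjusted p of at least 0.0606), with only those groups fitted (0.0545) and with a pseudocount of 0.1 (0.0588).

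**Figure D1:**
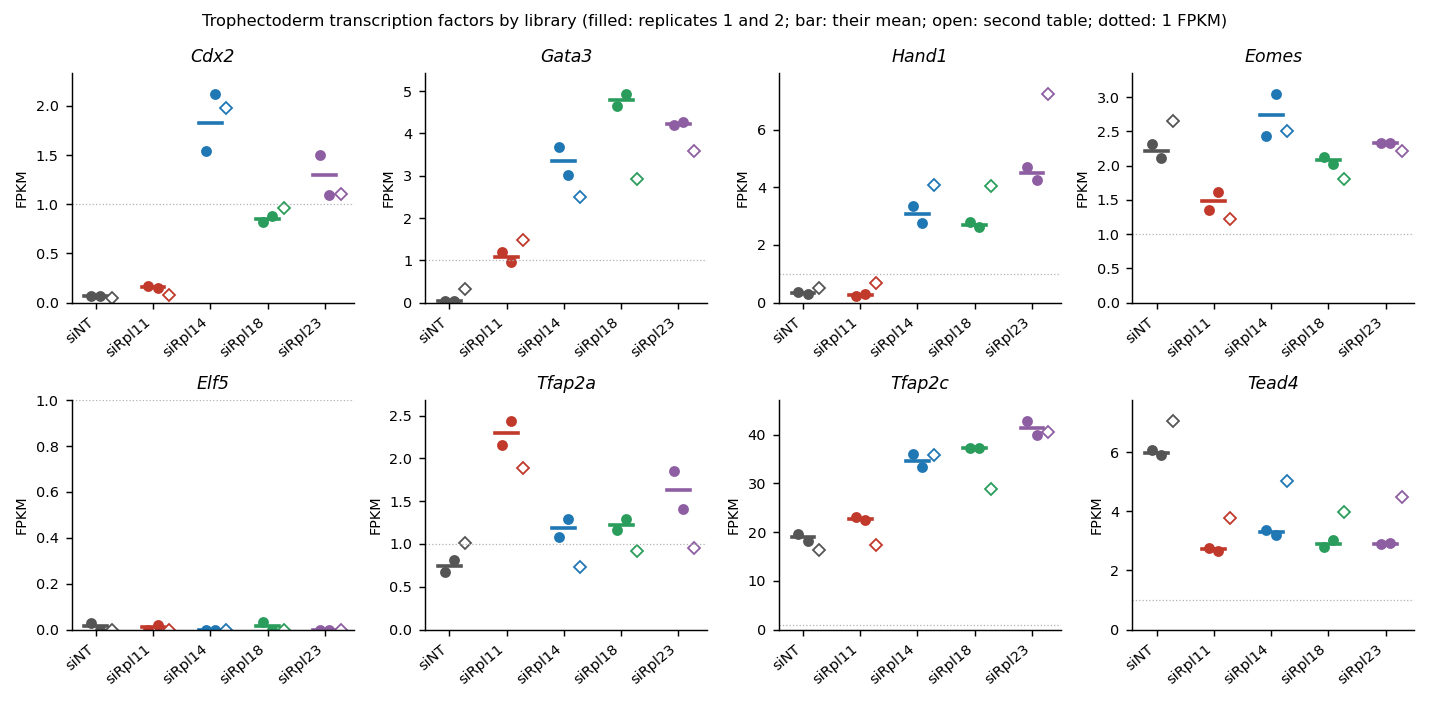
FPKM of each of the 8 transcription factors in every library (y axis, a linear scale per gene) by group (x axis); filled circles are replicates 1 and 2 of the first table, bars their mean, open diamonds the library of the second table, and the dotted line marks 1 FPKM. Hand1 and Cdx2 are near 0 in siNT and siRpl11 and clearly higher in the other 3 knockdowns, Tead4 is highest in siNT, and Elf5 is near 0 throughout.

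Tfap2c, the AP-2 factor shared by trophoblast stem cells and primordial germ cells, was the most abundant member in every library. The siNT libraries held 19.7 and 18.2 FPKM, and the siRpl11 libraries 23.2 and 22.4. The siRpl14 libraries held 36.0 and 33.3 FPKM, the siRpl18 libraries 37.2 in both, and the siRpl23 libraries 42.8 and 39.9. No knockdown library reached down to the controls, and siRpl11 stayed well below the other 3 knockdowns. Tfap2c rose by 0.26 ± 0.06 in siRpl11 (limma adjusted p = 0.00233), 0.84 ± 0.06 in siRpl14 (9.84e-07), 0.94 ± 0.06 in siRpl18 (3.63e-07) and 1.09 ± 0.06 in siRpl23 (1.45e-07). The siRpl11 difference was 0.39 with median-ratio scaling. In the second table siNT and siRpl11 were nearly level, at 16.2 and 17.3 FPKM, with siRpl18 at 28.9, siRpl14 at 35.9 and siRpl23 at 40.6. None of the 3 pairs among siRpl14, siRpl18 and siRpl23 was called.

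Tfap2a, the related AP-2 factor better known from surface ectoderm and neural crest, was the only member highest in siRpl11. The siNT libraries held 0.670 and 0.813 FPKM, and the siRpl11 libraries 2.16 and 2.44. The siRpl14 libraries held 1.08 and 1.29 FPKM, the siRpl18 libraries 1.16 and 1.29, and the siRpl23 libraries 1.86 and 1.41. Within the first table no knockdown library overlapped with siNT. Tfap2a rose by 0.92 ± 0.11 in siRpl11 (limma adjusted p = 3.13e-05) and 0.59 ± 0.11 in siRpl23 (0.000758), and by 0.33 in siRpl14 (0.0219) and 0.35 in siRpl18 (0.0142). The second table kept only the siRpl11 difference: siRpl11 held 1.89 FPKM against 1.01 in siNT, but siRpl14 (0.736), siRpl18 (0.917) and siRpl23 (0.951) were all below siNT. In the fit of all 15 libraries Tfap2a was no longer called in siRpl14 (0.15, limma adjusted p = 0.306) or siRpl18 (0.21, adjusted p = 0.138), and the siRpl23 difference was 0.38 (0.0139). The siRpl14 call was also lost without siNT replicate 1 (0.27, adjusted p = 0.114) or siRpl14 replicate 2 (0.26, 0.125) and with quantile normalization (0.23, 0.0776). The siRpl18 call was lost without siNT replicate 1 (0.29, adjusted p = 0.0824) or siRpl18 replicate 2 (0.31, 0.0744). With a pseudocount of 0.1 the Tfap2a differences in siRpl11, siRpl14, siRpl18 and siRpl23 were 1.51, 0.61, 0.66 and 1.03.

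Eomes, a T-box factor of trophoblast stem cells and of early mesoderm and endoderm, was already expressed in control cells and moved little in the first table. The siNT libraries held 2.31 and 2.11 FPKM, and the siRpl11 libraries 1.36 and 1.61. The siRpl14 libraries held 2.44 and 3.04 FPKM, the siRpl18 libraries 2.13 and 2.02, and the siRpl23 libraries 2.34 and 2.33. The siRpl11 libraries were below all others, while the siRpl18 libraries overlapped with the controls. Eomes fell by 0.37 ± 0.10 in siRpl11 (limma adjusted p = 0.00591). That call was lost with quantile normalization (-0.09, adjusted p = 0.422) and without siRpl11 replicate 1 (-0.30, adjusted p = 0.0534). The differences in siRpl14 (0.22, 95% interval 0.00 to 0.43), siRpl18 (-0.06, -0.27 to 0.16) and siRpl23 (0.05, -0.16 to 0.27) were not called, though the siRpl14 difference was called without siRpl14 replicate 1 (0.33, limma adjusted p = 0.0236). In the second table siNT was the highest library, at 2.65 FPKM, and siRpl11 the lowest, at 1.22. There siRpl14 held 2.50 FPKM (-0.06 from siNT), siRpl18 1.81 (-0.38) and siRpl23 2.22 (-0.18).

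Elf5, an Ets-family factor of trophoblast stem cells, was the only member under 1 FPKM in every library and so in all 5 groups. It was above 0 in 3 libraries, at 0.0302 FPKM in siNT replicate 1, 0.0218 in siRpl11 replicate 2 and 0.0338 in siRpl18 replicate 1, each worth about 1 fragment. It was listed at 0 in the other 12 libraries. Elf5 was not tested. From so few fragments a fall was not detectable, and no knockdown library showed a rise above about 1 fragment. Of the other members, Cdx2 averaged under 1 FPKM in siNT, siRpl11 and siRpl18, Hand1 in siNT and siRpl11, and Gata3 and Tfap2a in siNT alone, all in the first table.

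**Figure D2:**
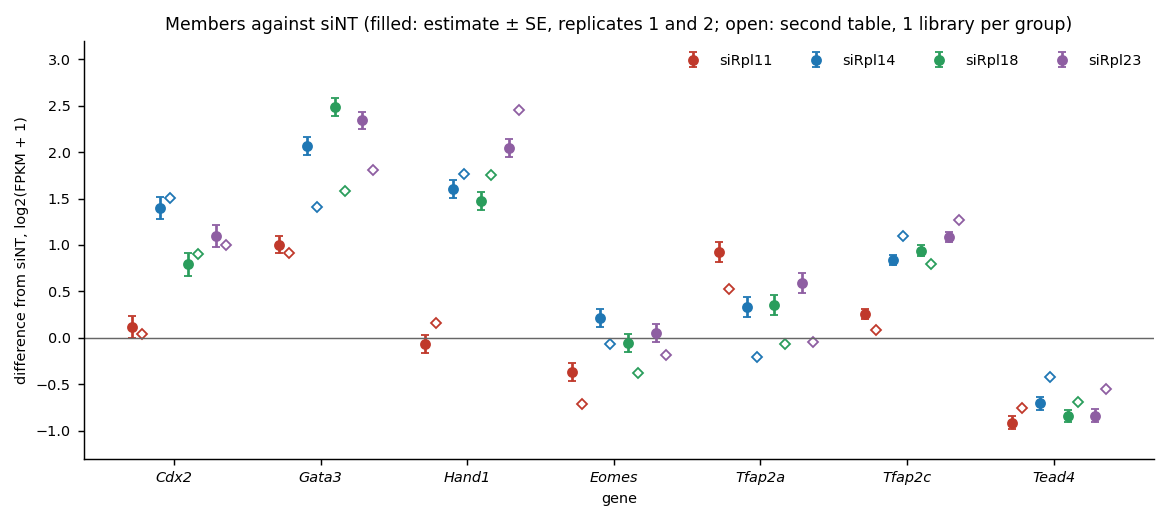
Difference of each knockdown from siNT for the 7 tested members, in log2(FPKM + 1) units (y axis); filled circles with bars are the limma estimate ± SE from replicates 1 and 2, and open diamonds the difference within the second table (1 library per group, no error). In siRpl11 the values for Cdx2 (0.12) and Hand1 (-0.06) sit at the zero line, while Tead4 lies below it in all 4 knockdowns; the second table's Tfap2a values lie at or below zero outside siRpl11.

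Counted against the rest of the genome, the number of members called says little, because most genes were called. In siRpl11, 3 members were called higher and 2 lower, where 70.9% of all tested genes were called (27.3% higher and 43.6% lower). In siRpl14, siRpl18 and siRpl23 alike, 5 members were called higher and 1 lower. The background was 62.8% called in siRpl14 (33.3% higher and 29.5% lower), 67.6% in siRpl18 (32.8% and 34.7%) and 65.7% in siRpl23 (34.9% and 30.8%). Moreover, 7 members entered the fit, and 4 of them (Cdx2, Gata3, Hand1 and Tfap2a) had no siNT library at 1 FPKM and passed the filter only through knockdown libraries. Their being higher therefore follows in part from the filter, and the counts support no statement on the members as a group. In bulk RNA, a few cells with a high level and many cells with a low level of these factors cannot be told apart.

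The siRpl11 group was then set against the other 3 knockdowns. Cdx2 and Hand1 passed the filter only through libraries of those 3 knockdowns. Gata3, at 1.20 and 0.949 FPKM in siRpl11 and less in siNT, would not have passed without them either. The lower values of Cdx2, Hand1 and Gata3 in siRpl11 therefore follow in part from the filter. The count of members called is no support. Compared with the mean of siRpl14, siRpl18 and siRpl23, siRpl11 was lower in Hand1 (-1.77 ± 0.08, limma adjusted p = 4.72e-08), Gata3 (-1.30 ± 0.08, 3.94e-07), Cdx2 (-0.98 ± 0.10, 1.47e-05), Tfap2c (-0.70 ± 0.05, 7.59e-07) and Eomes (-0.44 ± 0.08, 0.000732). It was higher in Tfap2a (0.50 ± 0.09, adjusted p = 0.000680), and Tead4 was not called (-0.12, adjusted p = 0.0911). These 6 calls stood beside a background of 62.6% of all genes (18.4% higher and 44.2% lower). Of all genes called in that comparison 29.3% were higher, a share that became 50.8% with median-ratio scaling and 56.8% with quantile normalization. Quantile normalization ended the Eomes call (-0.13, limma adjusted p = 0.172), raised the Tfap2a difference to 0.79 and turned Tead4 to 0.18, called as higher (adjusted p = 0.0170). Within the second table the same differences were -1.83 for Hand1, -0.68 for Gata3, -1.10 for Cdx2, -0.97 for Tfap2c, -0.51 for Eomes and 0.63 for Tfap2a.

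Taken in pairs, the knockdowns other than siRpl11 each had more members called against siRpl11 than against one another. The same held for all tested genes, so this is not particular to the members. Against siRpl11, 6 members were called higher and 1 lower in siRpl14, where 59.2% of all genes were called (42.4% higher and 16.7% lower). In siRpl18, 5 were higher and 1 lower (background 53.4%, with 36.2% higher and 17.1% lower), and in siRpl23 the same (55.4%, with 40.8% higher and 14.6% lower). Between siRpl18 and siRpl14, Gata3 was called higher and Cdx2 lower (background 14.3%, with 5.96% higher and 8.3% lower). Hand1 was the 1 member called between siRpl23 and siRpl18, as higher (background 3.51%, with 2.44% higher and 1.07% lower). None was called between siRpl23 and siRpl14 by limma (background 0.514%). In that last pair Hand1 was the member closest to the threshold (0.44, 95% interval 0.22 to 0.65, limma adjusted p = 0.0800).

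For each tested member, the genes with the most similar course over the 10 libraries of the first table were ranked by Pearson's r on log2(FPKM + 1), among the 1804 tested genes whose group means spanned at least 1 on that scale. The nearest to Gata3 were P2rx7 (r = 0.997), Fosl1 and Mmrn2 (both 0.996). Hand1 ran closest to Gnal (0.992), Dusp8 and Pcgf3 (both 0.991), and Cdx2 to Syt13 (0.991), Nes (0.989) and Sp5 (0.988). Tfap2c was nearest to Dlg5 (0.994), Ddr1 and Vdr (both 0.991), and Tead4 to Capn5 (0.996), Ltbp3 and Rab11fip4 (both 0.995). The matches were looser for Eomes, with Specc1 at 0.980 and Sertad4 and Apeh at 0.963, and for Tfap2a, for which Papolb stood at 0.947 and Snrpn at 0.940. Among the members themselves, Tfap2c correlated with Gata3 at 0.973 and with Hand1 at 0.967, whereas Tfap2a correlated with Hand1 at -0.02. The 10 points are 5 groups of 2, so these values mostly describe the order of 5 group means.

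The paralogs, genes of the same families as the members, show how far each family moved as a whole. Tead4 was a minor member of its family: siNT held 57.2 ± 0.9 FPKM of Tead2 (SD, n = 2) and 27.9 ± 2.0 of Tead1, against 5.99 ± 0.14 of Tead4 and 0.871 of Tead3. Tead1 rose in all 4 knockdowns, by 0.56 to 0.71, and Tead2 fell in all 4, to 43.7, 40.5, 37.2 and 36.2 FPKM in siRpl11, siRpl14, siRpl18 and siRpl23. Tead3 rose in siRpl14 (1.29 ± 0.12, limma adjusted p = 8.59e-06), siRpl18 (1.18 ± 0.12, 1.33e-05) and siRpl23 (1.21 ± 0.12, 1.19e-05), and in siRpl11 its difference was 0.01 (95% interval -0.26 to 0.27). The family's 4 genes thus moved in different directions, and the fall of Tead4 was shared by Tead2.

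Cdx1, the paralog of Cdx2, was present in control cells at 4.81 ± 0.48 FPKM and fell in siRpl11 to 1.35 ± 0.04 (-1.30 ± 0.08, limma adjusted p = 3.75e-07) and in siRpl18 to 3.79 ± 0.0076 (-0.28, adjusted p = 0.0101). Cdx1 rose in siRpl14 to 7.06 ± 0.53 FPKM (0.47, limma adjusted p = 0.000480), and in siRpl23 it held 5.64 ± 0.02 (0.19, adjusted p = 0.0502). Among the GATA genes, Gata4, a primitive endoderm factor, rose in all 4 knockdowns, by 0.59, 0.85, 0.97 and 0.86 in siRpl11, siRpl14, siRpl18 and siRpl23, to at most 2.38 ± 0.09 FPKM. Elf1, a broadly expressed Ets factor, rose from 4.01 ± 0.12 FPKM to 14.4 ± 0.6 in siRpl14, 18.6 ± 0.0092 in siRpl18 and 15.3 ± 1.2 in siRpl23, and less in siRpl11 (6.54 ± 0.26). Elf3, an epithelial Ets factor, fell in all 4 knockdowns, from 16.9 ± 0.9 FPKM to between 7.17 and 9.37. Of the 22 paralogs listed, 12 were tested. In siRpl11, 3 rose and 4 fell (median 0.03, against -0.11 over all genes), in siRpl14 7 rose and 2 fell (0.42 against 0.02), in siRpl18 6 and 3 (0.32 against -0.02) and in siRpl23 7 and 2 (0.36 against 0.02), and 4 of the 12 passed the filter without any siNT library at 1 FPKM. In siRpl11, siRpl14, siRpl18 and siRpl23, 27.3%, 33.3%, 32.8% and 34.9% of all genes were called higher. Called lower were 43.6%, 29.5%, 34.7% and 30.8%. With quantile normalization the siRpl11 count was 5 and 4 (median 0.22) and the siRpl14 count 5 and 2 (0.20).

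**Figure D3:**
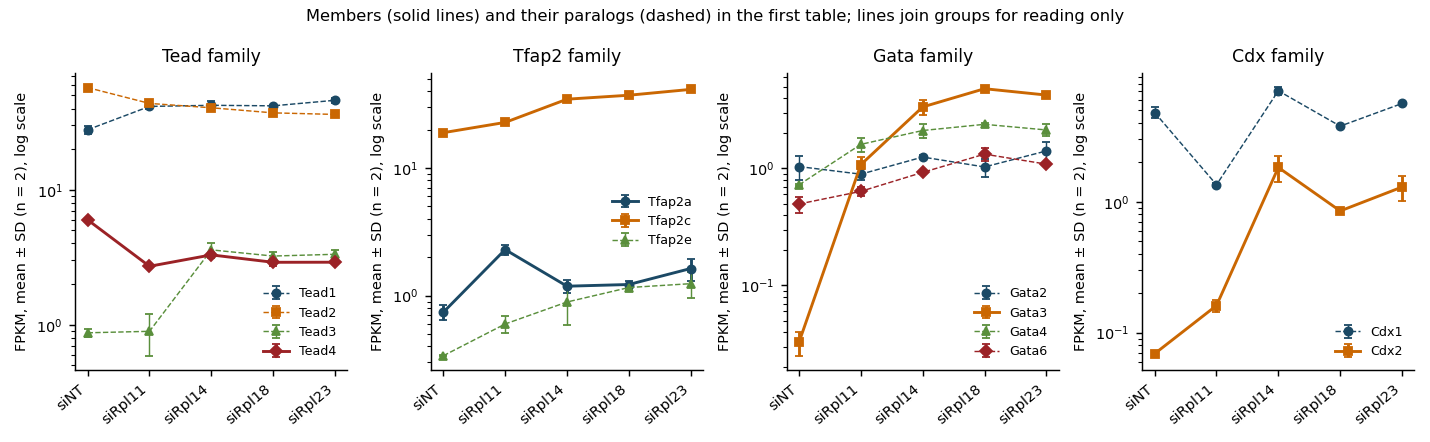
Mean FPKM ± SD (n = 2, first table, log scale on the y axis) by group in the Tead, Tfap2, Gata and Cdx families. Solid lines are members and dashed lines are paralogs of these families that passed the filter. Tead4 and Tead2 are lower in every knockdown while Tead1 is higher, Tead3 is near its siNT level in siRpl11, and Gata3 and Cdx2 start near the bottom of their scales in siNT.

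The Hippo pathway genes that act before Tead4 moved in both directions. Amotl2, a junctional scaffold that holds Yap1 out of the nucleus, rose from 11.6 ± 0.2 FPKM to 28.8 ± 0.3 in siRpl11, 45.2 ± 0.4 in siRpl14, 37.3 ± 0.6 in siRpl18 and 45.4 ± 2.3 in siRpl23. Lats2, a kinase that inactivates Yap1, rose by 0.46, 1.20, 1.14 and 1.05 in the same order. The co-activators split: Yap1 rose by 0.22 to 0.32 across the knockdowns, and Wwtr1 fell by 0.96 in siRpl11 and by 0.38 to 0.41 elsewhere. Nf2, an upstream activator of the kinases, fell by 0.54 in siRpl11, 0.57 in siRpl14, 0.61 in siRpl18 and 0.62 in siRpl23. Of 16 listed genes 15 were tested, with 4 higher and 6 lower in siRpl11, 6 and 5 in siRpl14, 6 and 4 in siRpl18, and 7 and 4 in siRpl23. The medians were -0.09, 0.15, 0.13 and 0.22, and the siRpl11 median turned to 0.04 with median-ratio scaling and 0.09 with quantile normalization. The share of listed genes called was about that of all genes.

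Markers of the trophectoderm and trophoblast other than the 8 factors moved in both directions in every knockdown. Of 30 listed genes 25 were tested, 6 of them with a siNT mean under 1 FPKM. In siRpl11, 7 rose and 14 fell (median -0.36, against -0.11 over all genes), where 27.3% of all genes were called higher and 43.6% lower. The siRpl11 median was -0.25 with median-ratio scaling, with 9 higher and 13 lower, and -0.19 with quantile normalization, with 9 and 11. In siRpl14 18 rose and 6 fell (0.52 against 0.02), in siRpl18 16 and 7 (0.38 against -0.02), and in siRpl23 19 and 6 (0.51 against 0.02). In the same order, 33.3%, 32.8% and 34.9% of all genes were called higher and 29.5%, 34.7% and 30.8% lower. With a pseudocount of 0.1 the siRpl18 and siRpl23 medians were 0.63 and 0.84. No test of the list itself was made. The keratin Krt8, of simple epithelia, rose most in siRpl14, where it held 24.6 ± 0.6 FPKM against 4.93 ± 0.75 in the controls, and stood at 20.4 ± 0.8 in siRpl23. Krt7 stood at 3.98 ± 0.16 and 3.80 ± 0.06 in the same groups, against 0.351 ± 0.026. The placental cadherin Cdh3 rose from 13.3 ± 0.1 FPKM to 40.6 ± 0.5 in siRpl14, 32.6 ± 0.5 in siRpl18 and 41.3 ± 2.7 in siRpl23. In siRpl11 the largest rises were those of Tspan8 (2.63), Lrp2 (1.82) and Fgfr2 (1.22), and the largest falls those of the claudin Cldn4 (-1.95) and the ligand Bmp4 (-1.65). Atp1b1, a sodium pump subunit of the blastocyst wall, and Plet1, a trophoblast surface protein, fell in all 4 knockdowns, Atp1b1 by 1.29, 1.01, 1.17 and 0.98 and Plet1 by 1.47, 1.09, 1.02 and 1.13 in siRpl11, siRpl14, siRpl18 and siRpl23. Bmp4, Ets2 and Esrrb also fell, and Lrp2 and Fgfr2 also rose, in all 4. Several listed genes are expressed by embryonic stem cells as well, such as Esrrb. The list summed to 497 to 514 FPKM in siNT, 291 to 292 in siRpl11 and 430 to 506 in the other knockdowns, and Esrrb alone made up 254 ± 4 in siNT, 111 ± 2 in siRpl11, 163 ± 6 in siRpl14, 170.1 ± 0.1 in siRpl18 and 167 ± 0.1 in siRpl23. Tpbpa, Prl3d1 and Prl2c2, markers of differentiated placental cells, were listed at 0 in every library.

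**Figure D4:**
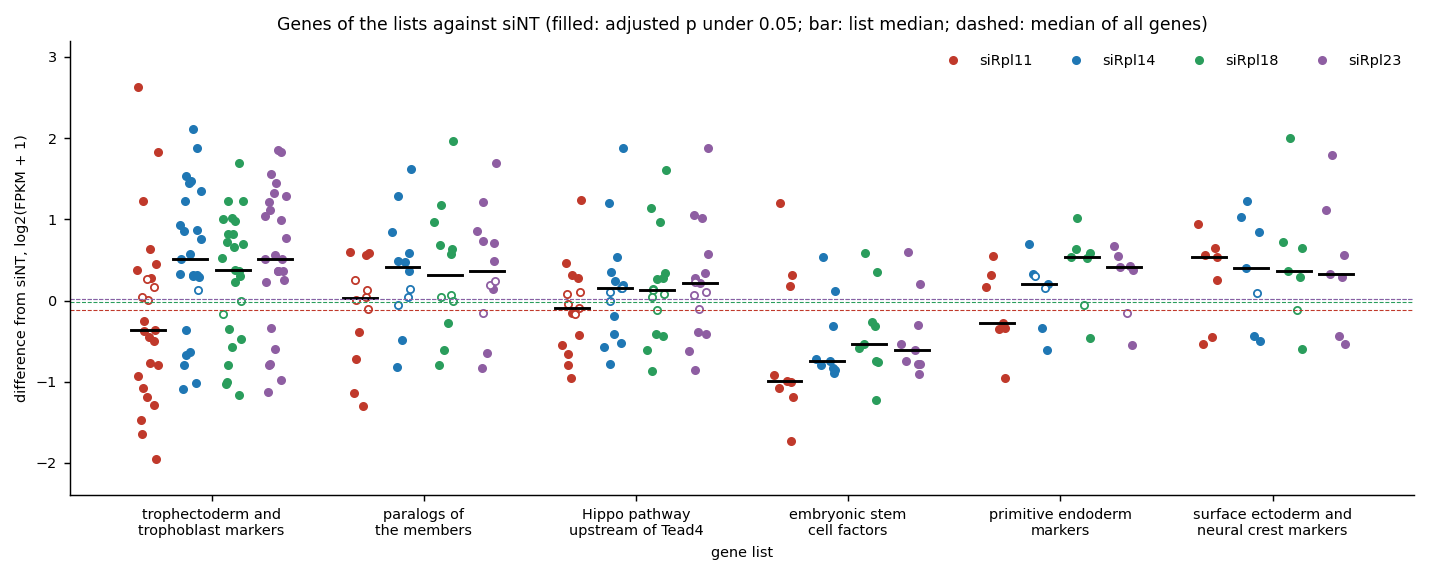
Differences from siNT in log2(FPKM + 1) units (y axis) for the tested genes of 6 lists (x axis), coloured by knockdown; filled points passed an adjusted p of 0.05 and open points did not, black bars are list medians, and dashed lines the median of all tested genes. The trophectoderm and trophoblast list has a median of -0.36 in siRpl11 and of 0.38 to 0.52 in the other knockdowns, and the embryonic stem cell factors have medians below zero in all 4.

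Factors of the embryonic stem cell state changed in every knockdown too, and their part in the members' changes was not tested. Pou5f1, the core factor that Cdx2 opposes, was high in all groups, at 948 ± 41 FPKM in siNT. It rose slightly in siRpl11 (0.18, limma adjusted p = 0.0175) and stood at 766 to 772 FPKM in the other knockdowns. Nanog fell from 439 ± 10 FPKM to 192 ± 4 in siRpl11 and to 243 to 259 elsewhere, and Tfcp2l1, a naive-state factor, from 86.2 ± 5.3 to 25.2 ± 0.4 and to 36.4 to 45.9. Of the 9 listed factors, 6 fell in siRpl11 and 7 in each of the others, and Sall4 and Sox2 rose in all 4. Of all genes tested, 43.6%, 29.5%, 34.7% and 30.8% were called lower in siRpl11, siRpl14, siRpl18 and siRpl23. The list's medians were -0.99, -0.75, -0.54 and -0.60, against -0.11, 0.02, -0.02 and 0.02 over all genes. The summed level of the 9 was 2473 to 2567 FPKM in siNT, 2045 to 2118 in siRpl11 and 1791 to 1948 in the other knockdowns.

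Markers of other cell types that use the same factors also moved, and their part in the members' changes was not tested. The 10 primitive endoderm markers summed to 39.5 to 41.9 FPKM in siNT, 36.6 to 37.6 in siRpl11 and 52.0 to 55.1 in the other knockdowns. Lamb1 alone averaged 21.4 FPKM in siNT and 24.1, 35.3, 31.5 and 34.8 in siRpl11, siRpl14, siRpl18 and siRpl23. Lama1, another laminin gene, was called lower in all 4 (-0.95, -0.61, -0.46 and -0.55 in that order). Of 7 tested, 3 rose and 4 fell in siRpl11, 3 and 2 in siRpl14, and 5 and 1 in siRpl18 and in siRpl23. With quantile normalization 3 rose and 1 fell in siRpl11, and 1 rose and 2 fell in siRpl14, as they did in siRpl14 with only the groups compared. The shares of all genes called were 27.3%, 33.3%, 32.8% and 34.9% higher and 43.6%, 29.5%, 34.7% and 30.8% lower in siRpl11, siRpl14, siRpl18 and siRpl23. Foxa2, an endoderm factor, rose by 1.01 in siRpl18, to 1.22 ± 0.19 FPKM (limma adjusted p = 5.20e-05). In the first table Foxa2 reached 1 FPKM in siRpl18 only, so its rise there follows in part from the filter. Of 10 mesoderm and primitive streak markers only Wnt3 passed the filter, and it rose in all 4 knockdowns (1.12, 2.52, 2.30 and 2.34 in siRpl11, siRpl14, siRpl18 and siRpl23). Wnt3 averaged 0.0725 FPKM in siNT and passed only through knockdown libraries, so its rise also follows in part from the filter. The whole list summed to at most 7.71 FPKM in a library of the first table, and the other 9 genes averaged under 1 FPKM in every group. Of 12 surface ectoderm and neural crest markers 7 were tested. In siRpl11, siRpl14, siRpl18 and siRpl23, 5, 4, 5 and 5 of them rose and 2, 2, 1 and 2 fell, with summed levels of 60.8 to 69.5 FPKM over all groups. Krt5, a keratin of basal epithelial cells, rose most in siRpl18 (2.00, limma adjusted p = 3.37e-08), from 0.0518 ± 0.0454 FPKM in siNT to 3.22 ± 0.17. Krt5 likewise passed the filter only through knockdown libraries. The 7 primordial germ cell markers, all tested, had 1, 0, 1 and 0 risen and 4, 2, 4 and 4 fallen in that order, and their sum went from 67.3 to 70.1 FPKM in siNT to 48.1 to 51.6 in the knockdowns. Kit alone averaged 27.6 FPKM in siNT and 11.1, 10.7, 11.7 and 10.7 in the knockdowns, so the sum mostly follows that gene. The rise in siRpl11 was that of Dppa3 (0.97). Of 8 fibroblast markers 2 were tested, Twist1 rising by 0.95 to 1.13 and Thy1 falling by 0.81 to 1.55, and the list summed to 15.7 to 16.5 FPKM in siNT and 7.03 to 12.6 in the knockdowns. Twist1, at most 0.999 FPKM in a siNT library of the first table, passed the filter only through knockdown libraries. In the first table, the primitive endoderm factors Sox17 and Sox7, unlike Foxa2, reached at most 0.487 and 0.789 FPKM, and the surface ectoderm factor Trp63, unlike Krt5, at most 0.108. Among the fibroblast markers Dcn was listed at 0 in every library and Postn in every library of the first table.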

How the data were processed

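RNA from E14 mouse embryonic stem cells was made into stranded poly-A libraries, per the labels' protocols. The authors deposited FPKM values made with STAR and Cuffnorm on mm9, per the submitters' processing notes (tool versions, annotation and settings: not given in the sources used here). Replicates 1 and 2 of each group were in the first table and 1 library per group in the second, and 2 columns of the first table that match no sample were not used. Since the FPKM values are not counts, log2(FPKM + 1) was fitted with limma 3.58.1 (R 4.3.3, trend) over the 10 libraries of the first table, 5 groups and 5 residual degrees of freedom, for 12249 of 24819 genes, with Benjamini-Hochberg adjustment over all of them. The script was tested on simulated data. Relative depth came from the 1-fragment steps of genes with a single transcript, which is approximate after the authors' scaling; the number of libraries limits the precision. The 8 members and all gene lists were chosen with earlier results of these data known. Genes outside the members were named by rule: per list and knockdown up to 3 called rises and 2 called falls, and per tested member the 3 genes of highest r (1 of them is not reported here). Esrrb, the low markers Sox17, Sox7 and Trp63, and the rest of the TEAD family were named after their values were seen, as were Cdx1, Gata4, Elf1, Elf3, Yap1, Wwtr1, Pou5f1, Sox2, Atp1b1, Plet1, Bmp4, Ets2, Lrp2, Fgfr2 and Nf2 in comparisons where the rule did not pick them. Lamb1 in siRpl18 was likewise named after its values were seen. The alternatives were other pseudocounts, filters and scalings, a replicate block, fits of fewer groups, all 15 libraries with the table as a term, and each library left out in turn.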

Additional observations from a re-analysis of the deposited data

How the results depend on the processing

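The 77 differences of the members were recomputed under up to 19 alternatives, giving 1452 values: 1405 stayed on their side of the threshold, 37 were no longer called, 6 became called in the same direction, and 4 turned in direction with a call in the main analysis or the alternative, 3 of them not called in the main analysis. Another 12 values, of 8 differences, changed sign without a call in either and are among the 1405. The 4 that turned with a call were those of Tead4 with quantile normalization: 0.18 for siRpl11 against the mean of siRpl14, siRpl18 and siRpl23, and -0.11, -0.19 and -0.23 for siRpl14, siRpl18 and siRpl23 against siRpl11; the cause was not tested. With quantile normalization 1 member was lower in siRpl11 against siNT and 2 were higher against the mean of the other knockdowns. Between siRpl18 and siRpl14, 1 member was called with a pseudocount of 0.1, 1 with a filter on the mean (which Cdx2 did not pass) and 1 with all 15 libraries. Between siRpl23 and siRpl14, 1 was called with all 15 libraries. Between siRpl23 and siRpl18, 0 were called with a pseudocount of 0.1 and 0 with only those groups fitted. Leaving out 1 library gave 1 to 2 members lower in siRpl11 against siNT, 0 to 2 called between siRpl18 and siRpl14, and 0 to 1 between siRpl23 and siRpl18. Same-numbered libraries of each knockdown and siNT showed little shared deviation (correlations of -0.09 to 0.20). With 1 replicate difference per group, these correlations cannot decide whether same-numbered libraries were handled together. With the replicate block, 2 members were called between siRpl23 and siRpl14, Hand1 (0.44, limma adjusted p = 0.0469) and Tfap2c (0.25, 0.0249), where none was without it. At this depth Elf5 held about 0 to 1 fragment, and the siNT values of Cdx2 and Gata3 rest on about 1 to 3 fragments, per library of the first table.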
